A study of Mus musculus with 7 samples.

Results

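Il7r or Rag1 positive early lymphoid progenitors were described here from the single-cell RNA of mouse bone marrow LSK cells, the lineage-negative cells sorted for Sca-1 and cKit on their surface. A barcode was kept as a cell with at least 1000 UMIs (unique molecular identifiers, 1 per captured RNA molecule), at least 500 detected genes and at most 10% of UMIs from mitochondrial genes. A kept cell was counted as a progenitor of this kind with at least 2 Dntt UMIs, at least 1 UMI of Il7r and Rag1 together, and fewer than 3 of 11 T and NK cell genes detected. The rule found 782 cells among 24430 kept cells. The cells were chosen by these UMI counts of Dntt, Il7r, Rag1 and the T and NK genes, so the levels of those genes are a description and carry no test against other cells.

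The 7 libraries were labelled B4galt1 KO (3 libraries, genotype 129S1/C57Bl/6, B4-/-) or WT (4 libraries, genotype 129S1/C57Bl/6). Both labels share the mixed 129S1 and C57Bl/6 background, and the knockout is described as a full one. B4galt1 encodes a galactosyltransferase of the Golgi that adds galactose to N-glycans. The age of the mice, the animals behind each library and the deleted part of the gene are not given in the sources used here. Nothing says that the libraries of a label came from separate mice, so p-values measure the spread between libraries, which may be technical.

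The earliest lymphoid progenitors arise from multipotent cells that express Flt3, and they still carry stem and myeloid RNA. Dntt encodes terminal deoxynucleotidyl transferase, which adds untemplated bases where antigen receptor genes are joined. Il7r encodes the chain that makes the interleukin 7 receptor specific for its ligand, and this signal is needed for B cell development in mouse marrow. Rag1 and Rag2 form the enzyme that cuts DNA in V(D)J recombination, and the transcription factors E2A (Tcf3), Ikaros (Ikzf1) and Ebf1 take part in commitment to the B lineage.

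Dntt lies at chr19:41029275-41059525 on the plus strand, Il7r at chr15:9505788-9530176 on the minus strand and Rag1 at chr2:101638282-101649501 on the minus strand (GENCODE M21, GRCm38). Their promoters are shown because these 3 RNAs define the cells. Each sequence comes from RefSeq (GRCm38.p6) and runs 5′ to 3′ along the transcript, from 250 bases before to 50 bases after its start, at chr19:41029025-41029324, chr15:9529827-9530126 and chr2:101649483-101649782. Capitals mark matches to the E box CANNTG, which E2A binds, and to the Ikaros core TGGGAA, searched on both strands.
Dntt: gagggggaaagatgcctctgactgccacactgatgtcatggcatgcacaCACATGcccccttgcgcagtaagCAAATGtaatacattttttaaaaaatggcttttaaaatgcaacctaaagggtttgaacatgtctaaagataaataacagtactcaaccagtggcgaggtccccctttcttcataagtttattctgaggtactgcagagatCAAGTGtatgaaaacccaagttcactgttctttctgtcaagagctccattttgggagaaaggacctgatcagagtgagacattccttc
Il7r: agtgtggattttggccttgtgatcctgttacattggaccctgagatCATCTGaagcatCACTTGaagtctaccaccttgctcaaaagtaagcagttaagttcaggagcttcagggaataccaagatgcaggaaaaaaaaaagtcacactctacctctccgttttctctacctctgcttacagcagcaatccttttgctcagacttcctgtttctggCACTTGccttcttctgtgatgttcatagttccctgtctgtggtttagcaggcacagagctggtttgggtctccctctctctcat
Rag1: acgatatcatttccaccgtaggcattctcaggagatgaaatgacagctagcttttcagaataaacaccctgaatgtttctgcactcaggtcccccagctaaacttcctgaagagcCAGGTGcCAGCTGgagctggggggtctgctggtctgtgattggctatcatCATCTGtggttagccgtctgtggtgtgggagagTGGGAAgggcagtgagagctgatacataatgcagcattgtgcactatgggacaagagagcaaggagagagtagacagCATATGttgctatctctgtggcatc
The Dntt and Il7r windows each held 3 E boxes and the Rag1 window held 4, and 72.3% of all 32851 promoters of this length held at least 1. The Ikaros core was found once in the Rag1 window and in 25.6% of all promoters. The Ebf1 motif, TCCC and GGGA with any 2 bases between them, was found in 0 of the 3 windows and in 0.904% of all promoters. A match is a run of letters in this window and not a measured site.

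Libraries held 1172 to 8862 kept cells and 14970791 to 89747946 UMIs in all. By the opening 6 bases of their cell barcodes the libraries fell into 2 sets. KO replicates 1 and 2 and WT replicates 1, 2 and 3 (list A) shared 91.6% to 99.2% of these openings in pairs, KO replicate 3 and WT replicate 4 (list B) shared 100%, and pairs across the lists shared 9.35% to 9.80%. Results by label are therefore also given within lists, and list B holds 1 library per label. The filter kept 49.9% and 46.2% of barcodes in KO replicates 1 and 2, against 39.3%, 44.8% and 32.4% in WT replicates 1 to 3. It kept 98.3% in KO replicate 3 and 96.2% in WT replicate 4. The shares of kept cells below have these kept barcodes as their denominator. KO replicate 3 and WT replicate 4 had 68 kept cell barcodes in common, against at most 2 in any other pair, and 0 barcodes were progenitors in both libraries of a pair. B4galt1 RNA did not separate the labels in the progenitors: it was at 69.1, 43.7 and 35.3 CPM in the KO libraries and 49.6, 58.9, 54.3 and 48.0 CPM in the WT libraries (log2 difference -0.07, SE 0.20, edgeR adjusted p = 1.00; CPM is the gene's count in the summed cells, scaled to a common total). The kit reads the 3′ end of a transcript, so this level checks nothing if the deleted part lies elsewhere.

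Most progenitors lay well inside the Dntt limit. Dntt was at 1056, 1127 and 2637 CPM in the KO libraries and 1239.8, 1389, 1517 and 2384 CPM in the WT libraries. The list B libraries were high under both labels, and the labels overlapped. The median progenitor carried 10 to 27.5 Dntt UMIs by library, and 716 of the 782 had at least 5. Just inside the limit 23 cells had exactly 2 Dntt UMIs, and just outside it 33 cells with 1 Dntt UMI met the rest of the rule. A further 34 cells failed only because 3 or more T and NK genes were detected.

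Il7r carried most of the second condition. Of the 782 cells, 669 had Il7r UMIs without Rag1, 28 had Rag1 without Il7r and 85 had both. Il7r was at 191, 180.1 and 191 CPM in the KO libraries and 124, 152, 154 and 209 CPM in the WT libraries, so the labels overlapped. A single Il7r or Rag1 UMI admitted 314 of the cells. As a background, 253 cells of 6 libraries were gated as megakaryocytic by 5 or more UMIs of Pf4, the platelet factor gene, and at least 1 of Itga2b. KO replicate 3 gave 161 of them and WT replicate 4 gave 79, so the other libraries say little about the background. Of the 253 cells, 3.56% had at least 2 Dntt UMIs (1.86% in KO replicate 3 and 7.59% in WT replicate 4), 1.19% had an Il7r UMI, 0 had a Rag1 UMI, which allows a share of cells with a UMI of up to 1.19%, and 0 met the whole rule. Their median depth was 14647 UMIs in KO replicate 3 and 16428 in WT replicate 4, against 12284 to 17919 in the progenitors. A second background was 14000 cells gated as stem cells by at least 1 UMI each of Hlf and Mecom. Of these, 12.5% had at least 2 Dntt UMIs, 1.43% had an Il7r UMI and 0.243% had a Rag1 UMI. The whole rule was met by 164 of them, so 164 of the 782 progenitors also carried Hlf and Mecom UMIs.

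Cd3e, Cd3g and Bcl11b, which define T cells, gave no UMI in the 782 progenitors. They are among the 11 genes that the rule limits, so their low level is partly set by the selection. Trbc2 was seen in 5.63% and Klrd1 in 6.14%. Nkg7, a granule membrane gene of cytotoxic cells, was the exception with a UMI in 62.3% of the progenitors, and 19.2% to 75.6% by library. The neutrophil genes summed to at most 82.2 CPM in the progenitors of any library, the mature B cell genes to at most 53.3 CPM, and the macrophage and erythroblast genes to at most 32.8 CPM. A UMI of Mpo, Elane, Prtn3 or Ctsg, which encode proteins of myeloid granules, was present in 88.3% to 97.8% of the progenitors by library. It was present in 88.5% to 99.0% of the other Dntt cells, the 3753 kept cells that meet the same Dntt and T and NK limits but have no Il7r or Rag1 UMI. The megakaryocytic cells of KO replicate 3 and WT replicate 4 also held such RNA, with Mpo at 44.9 and 182 CPM and Prtn3 at 68.7 and 143 CPM. A single UMI therefore does not show that a cell expresses the gene, and the part of free RNA in these shares was not tested.

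The progenitors made up a smaller share of kept cells in each library labelled KO than in any labelled WT. They were 57 of 3072 cells (1.86%) in KO replicate 1, 26 of 1725 (1.51%) in KO replicate 2 and 182 of 6855 (2.65%) in KO replicate 3. They were 71 of 1244 (5.71%), 48 of 1172 (4.10%), 74 of 1500 (4.93%) and 324 of 8862 (3.66%) in WT replicates 1 to 4. The mean was 2.01% ± 0.588 (SD, n = 3) for KO and 4.60% ± 0.910 (SD, n = 4) for WT, with a two-sided exact permutation p = 0.0286, the smallest that 3 against 4 libraries allow. Adjusted over the 9 shares compared by label, the exact permutation p was 0.0643. The difference was -3.23 percentage points within list A (exact permutation p = 0.1, the smallest possible there) and -1.001 points within list B. With every cell thinned to 4000 UMIs before the rule was applied, the mean was 1.01% ± 0.178 (SD, n = 3) for KO and 2.12% ± 0.245 (SD, n = 4) for WT (exact permutation p = 0.0286).

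**Figure D1:**
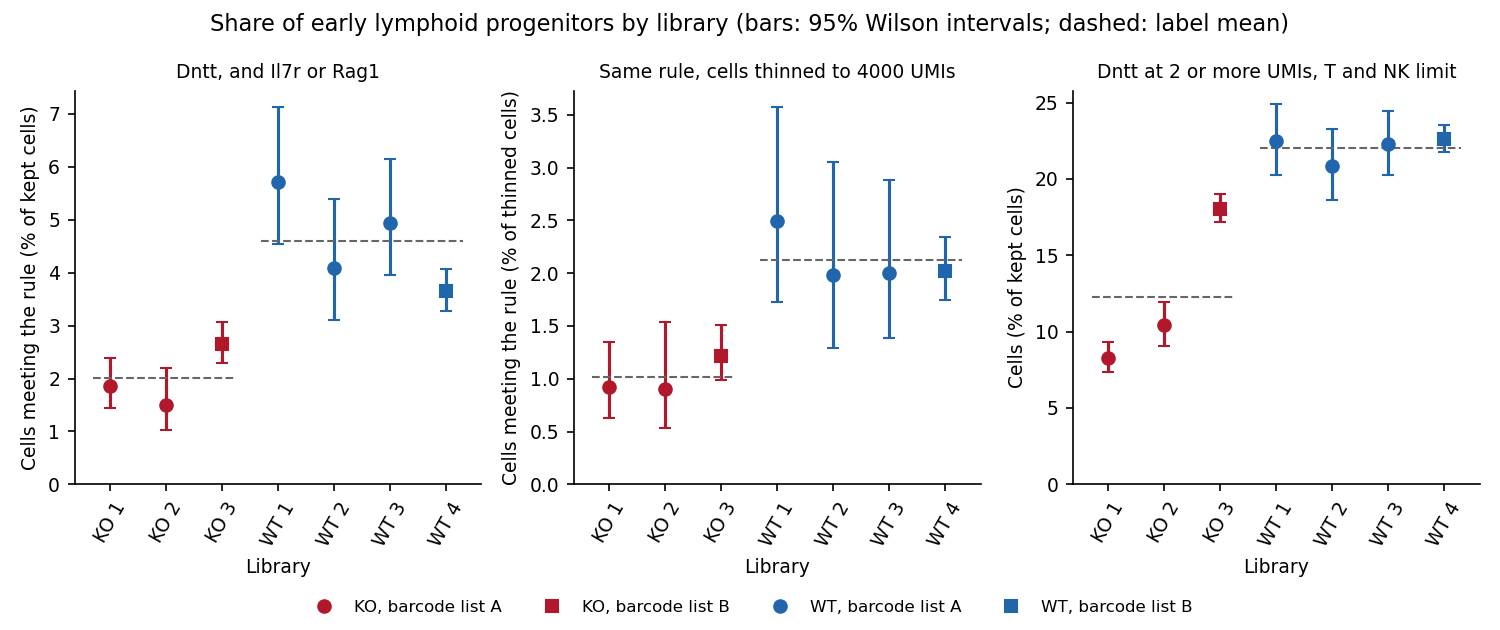
Points are libraries and the vertical axes are percent of kept cells, or of thinned cells in the middle panel. The panels show the cells that met the rule, the same after thinning, and cells with at least 2 Dntt UMIs that met the T and NK limit. Vertical bars are 95% Wilson intervals, which cover counting error only, and dashed lines are label means. Without thinning the KO libraries lie at 1.51% to 2.65% and the WT libraries at 3.66% to 5.71%.

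Cells with Dntt RNA were fewer as well. The share with at least 2 Dntt UMIs that also met the T and NK limit was 8.27%, 10.4% and 18.1% in the KO libraries and 22.5%, 20.8%, 22.3% and 22.6% in the WT libraries. KO replicate 3 lay nearest to the WT libraries, and the labels did not overlap (mean 12.3% ± 5.14 (SD, n = 3) for KO and 22.1% ± 0.837 (SD, n = 4) for WT, exact permutation p = 0.0286, adjusted p = 0.0643). Among these Dntt cells, the share with Il7r or Rag1 was 17.2% ± 4.54 (SD, n = 3) for KO and 20.8% ± 3.89 (SD, n = 4) for WT, and the labels overlapped (exact permutation p = 0.286). The difference in progenitor share kept its direction but missed the threshold when cells with any T or NK gene were left out (-0.847 points, exact permutation p = 0.171), and with a mitochondrial limit of 5% (-3.17 points, exact permutation p = 0.0571).

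Against the other Dntt cells of the same library, the progenitors carried more RNA of early lymphoid and G2/M genes and less of stem cell genes. The test was edgeR's quasi-likelihood test on counts summed per library and cell group, with the library as a block. Of 10671 genes tested, 1672 (15.7%) passed an adjusted p of 0.05, 865 (8.11%) higher and 807 (7.56%) lower in the progenitors. Dntt, Il7r, Rag1 and the T and NK genes of the rule were left out of the test. The progenitors were the deeper cells, with medians of 12284 to 17919 UMIs by library against 9441 to 12719. With all cells thinned to 4000 UMIs, 312 of 5875 genes passed.

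Of 17 early lymphoid genes tested, 12 rose and 1 fell in the progenitors, with a median log2 difference of 0.83 against 0.00 over all genes tested. After thinning 4 of 11 rose, and without WT replicate 4 the number was 7 of 16. Rag2, the partner of Rag1, was at 12.7, 5.41 and 22.4 CPM in the progenitors of the KO libraries and 22.5, 43.0, 25.7 and 43.3 CPM in those of the WT libraries. In the other Dntt cells Rag2 was at 2.49 to 9.24 CPM, below the progenitors (log2 difference 2.30, SE 0.18, edgeR adjusted p = 8.4e-12). Genes named by size, Rag2 among them, had to share 1 direction in all 7 libraries. Arpp21, which encodes a cAMP-regulated phosphoprotein, averaged 299.5 CPM ± 103 against 73.1 CPM ± 49.0 (log2 difference 2.19, edgeR adjusted p = 0.00116, n = 7 libraries in each mean here). Ighm, the gene of the mu heavy chain, averaged 496 CPM ± 136 against 279 CPM ± 86.5 (log2 difference 0.87, edgeR adjusted p = 2.8e-17).

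Ly6d, a surface marker of lymphoid progenitors biased to the B lineage, was at 85.0, 0 and 54.5 CPM in the progenitors of the KO libraries and 25.0, 6.14, 25.0 and 165 CPM in those of the WT libraries. KO replicate 2, with 26 progenitors, had no Ly6d UMI in them, and Ly6d averaged 2.00 CPM in the other Dntt cells (log2 difference 5.20, edgeR adjusted p = 0.00114). The gene that fell was Ltb, lymphotoxin beta, at 25.1 CPM ± 30.2 against 61.6 CPM ± 57.7 (log2 difference -1.18, edgeR adjusted p = 1.5e-08). Flt3, the receptor that marks lymphoid-primed multipotent cells, was at 599.6 to 792 CPM in the progenitors and 405 to 707 CPM in the other Dntt cells and did not pass (log2 difference 0.31, edgeR adjusted p = 0.0874).

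The B lineage list was mostly too low to test. Of the 5 genes tested, Ebf1 rose. Ebf1 was at 198, 8.12 and 47.7 CPM in the progenitors of the KO libraries and 67.5, 62.5, 134 and 663 CPM in those of the WT libraries, and at 1.54 to 12.4 CPM in the other Dntt cells. It was higher in the progenitors (log2 difference 5.19, SE 0.52, edgeR adjusted p = 6.5e-04). Naming by size required 1 direction in all 7 libraries, so that agreement carries no weight of its own. Cd79b, Cd24a, Foxo1 and Ralgps2 did not pass, with edgeR adjusted p of 0.165 to 0.463. Blnk, an adaptor of B cell receptor signalling named by its size of change, averaged 61.9 CPM ± 36.6 against 11.1 CPM ± 1.98 (log2 difference 2.79, edgeR adjusted p = 0.00404).

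Among lymphoid transcription factors 8 of 20 tested rose and 3 fell (median 0.15). Ets1 averaged 49.3 CPM against 24.8 CPM (log2 difference 1.14, edgeR adjusted p = 9.0e-12), and Notch1, the receptor of T lineage specification, 179 CPM against 119 CPM (log2 difference 0.64, edgeR adjusted p = 2.1e-11). Ikzf1 averaged 667 CPM against 516 CPM (log2 difference 0.43, edgeR adjusted p = 0.0345), and Tcf3 94.4 CPM against 78.8 CPM (log2 difference 0.30, edgeR adjusted p = 0.00197). Ikzf2, the gene of Helios, fell from 173 CPM in the other Dntt cells to 67.5 CPM (log2 difference -1.32, edgeR adjusted p = 2.6e-19). Spi1, the gene of PU.1, fell as well (log2 difference -0.41, edgeR adjusted p = 4.4e-06), and so did Zbtb16, the gene of PLZF (log2 difference -1.83, edgeR adjusted p = 0.00201). After thinning, 3 of 15 factors rose and 2 fell.

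Il7 receptor signalling genes moved both ways, with 5 of 20 tested higher and 5 lower (median -0.13). Socs2, a feedback inhibitor of cytokine receptors, averaged 13.4 CPM against 3.89 CPM (log2 difference 1.66, edgeR adjusted p = 8.9e-07), and the survival gene Bcl2 498 CPM against 415 CPM (log2 difference 0.28, edgeR adjusted p = 2.4e-04). Il2rg, the second chain of the receptor, fell from 39.8 to 25.7 CPM (log2 difference -0.54, edgeR adjusted p = 8.1e-05). After thinning 0 of 13 of these genes passed with edgeR. Of 10 genes of V(D)J recombination and end joining 3 rose. They were Xrcc6, the Ku70 gene (150.2 CPM against 93.0 CPM, log2 difference 0.76, edgeR adjusted p = 0.00715), and Hmgb1 and Hmgb2, whose proteins bend DNA for the Rag enzyme (log2 differences 0.35 and 0.40).

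Stem cell genes were lower in 11 of 13 tested (median -0.47), and after thinning in 5 of 9. Hlf, a stem cell transcription factor, was at 17.8 to 86.0 CPM in the progenitors and 106 to 209.9 CPM in the other Dntt cells (log2 difference -1.52, SE 0.08, edgeR adjusted p = 1.6e-17). Its shared direction in all 7 libraries was a condition of naming by size. Meis1, a homeobox factor of stem cells, averaged 376 CPM against 509 CPM (log2 difference -0.40, edgeR adjusted p = 8.4e-09), and Kit, the gene of the sorted cKit protein, 94.6 CPM against 173 CPM (log2 difference -0.80, edgeR adjusted p = 1.3e-12). Ly6a, the gene of Sca-1, and Cd34 were looked up because of the sort, after values had been seen. Ly6a averaged 22.7 CPM against 32.0 CPM (log2 difference -0.47, edgeR adjusted p = 0.00574) and Cd34 321 CPM against 428 CPM (log2 difference -0.39, edgeR adjusted p = 1.5e-07). Of 5 megakaryocyte and erythroid genes tested 3 fell, Gata2 (-1.47), Car2 (-1.28) and Zfpm1 (-1.01).

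Genes of cell division rose together. All 20 tested G2/M genes were higher in the progenitors, by 0.43 to 0.92 (median 0.59), and 15 of 19 passed after thinning. Ccna2, the gene of cyclin A2, averaged 97.4 CPM ± 29.4 against 58.4 CPM ± 15.3 (log2 difference 0.80, edgeR adjusted p = 5.7e-11), and Hmmr 94.9 CPM ± 12.9 against 60.5 CPM ± 6.56 (log2 difference 0.71, edgeR adjusted p = 4.3e-10). S phase genes moved less: 6 of 20 rose (median 0.16), among them Rrm1, a subunit of ribonucleotide reductase (0.29), and 2 of 20 rose without WT replicate 4. Immediate early genes, which also respond to cell handling, were lower in 7 of 12, with Ier2 at -0.49, Dusp1 at -0.51 and Junb at -0.50.

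Myeloid genes were split, with 6 of 15 lower and 3 higher. The granule proteases fell, Prtn3 at 124 CPM against 294 CPM (log2 difference -1.20, edgeR adjusted p = 1.4e-18) and Ctsg at 113 CPM against 238 CPM (log2 difference -0.95, edgeR adjusted p = 5.8e-11). Ly86 averaged 57.9 CPM against 21.7 CPM (log2 difference 1.57, edgeR adjusted p = 1.6e-13). Irf8, a factor of dendritic cell, monocyte and B cell development, averaged 253 CPM against 156 CPM (log2 difference 0.73, edgeR adjusted p = 2.1e-11). In the galactosylation list 3 of 15 genes rose and 4 fell, and without WT replicate 4 these were 1 and 3. St6gal1, whose enzyme caps galactose with sialic acid, averaged 43.4 CPM ± 23.1 against 12.3 CPM ± 6.68 (log2 difference 2.04, edgeR adjusted p = 1.6e-07). Muc13, a membrane mucin, averaged 33.2 CPM ± 23.6 against 84.1 CPM ± 39.9 (log2 difference -1.33, edgeR adjusted p = 1.4e-12), but did not pass after thinning (-0.63, adjusted p = 0.142).

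The 12 largest rises also held genes outside the lists. Gfra1, a receptor subunit for GDNF, averaged 30.1 CPM against 4.73 CPM (log2 difference 2.83), Cox6a2, a respiratory chain subunit known from muscle, 56.6 CPM against 9.67 CPM (2.66), and Bfsp2, a lens filament gene, 47.9 CPM against 10.3 CPM (2.36). Cmah, an enzyme that modifies sialic acid, averaged 338 CPM against 98.5 CPM (1.85), and Mpeg1, a pore-forming protein of phagocytes, 63.0 CPM against 18.9 CPM (1.90). Tmem108 (2.15) and Sorcs2 (1.77) completed the rises. The largest falls outside the lists were Dach1 (25.8 CPM against 112 CPM, -1.64), Myct1 (-1.64), Hk3 (-1.63), Mc5r (-1.62), Cd63 (-1.51), Rab38 (-1.50), Klf12 (-1.42) and Vldlr (-1.34). Among the rises and falls named by size the highest edgeR adjusted p was 0.0155, for Dach1.

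**Figure D2:**
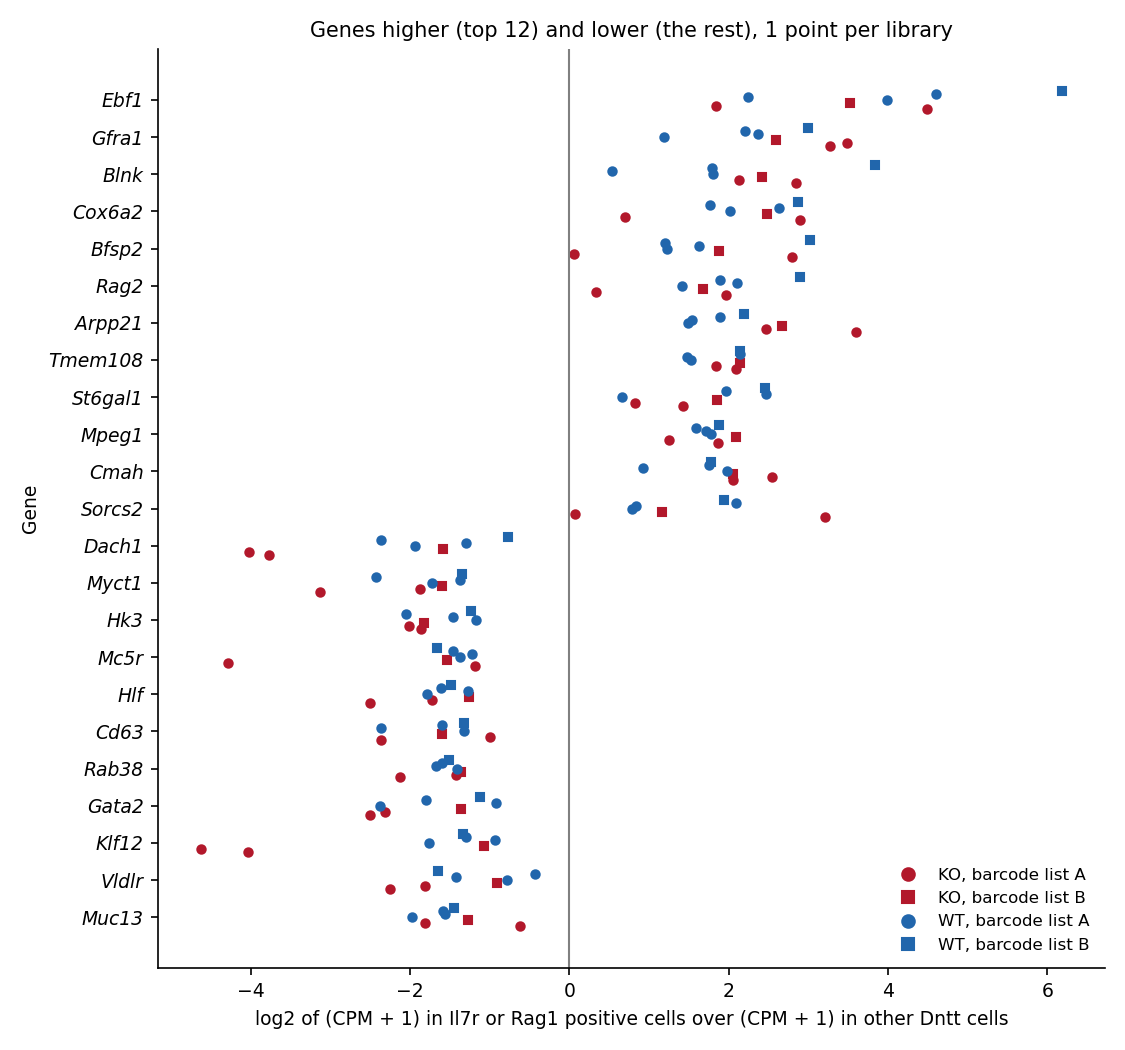
Each point is 1 library, placed by the log2 ratio of CPM + 1 in the Il7r or Rag1 positive cells over CPM + 1 in the other Dntt cells. Red is KO, blue is WT, circles are list A and squares are list B. The genes were named by size among those with 1 direction in all 7 libraries, so the rises lie right of 0 and the falls left of it.

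**Figure D3:**
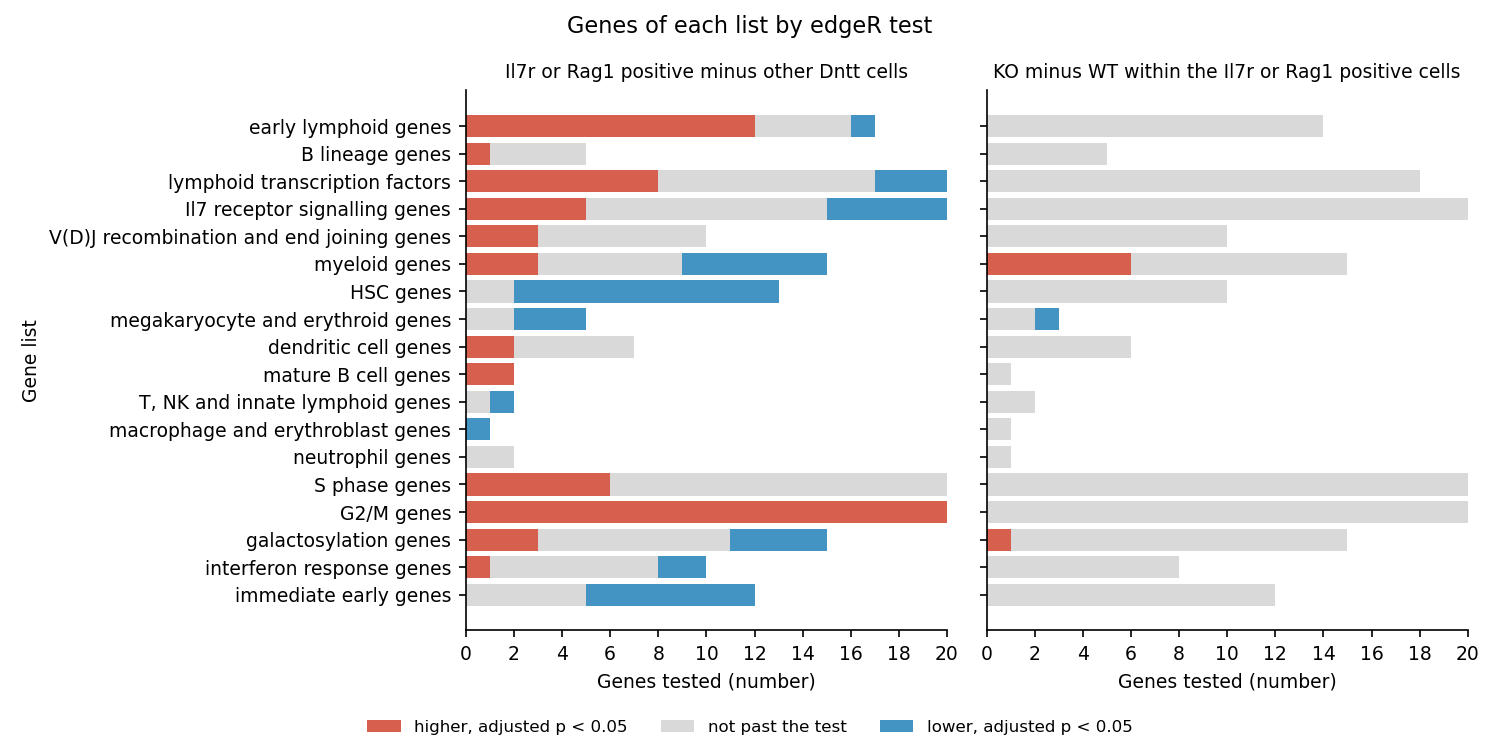
Bars count the tested genes of each list, split into higher (red), not past the test (grey) and lower (blue), for the progenitors against other Dntt cells and for KO against WT within the progenitors. In the first comparison all 20 G2/M genes are higher and 11 of 13 stem cell genes lower, and in the second 6 of 15 myeloid genes are higher.

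Within the progenitors, Rag1 and Ebf1 RNA were seen in a smaller share of cells in the KO libraries. A Rag1 UMI was present in 3.51%, 7.69% and 5.49% of progenitors in KO replicates 1 to 3 and in 9.86%, 16.7%, 17.6% and 21.9% in WT replicates 1 to 4. The labels did not overlap (mean 5.57% ± 2.09 (SD, n = 3) for KO and 16.5% ± 4.99 (SD, n = 4) for WT), but the exact permutation p was 0.0571 (adjusted p = 0.103), and the counts were 14 of 265 KO and 99 of 517 WT progenitors. Rag1 is part of the rule, so this share also moves with the cells admitted by Il7r. A UMI of Rag1 or Ebf1 is also more readily seen in deeper cells. The median progenitor had 12722 and 12283.5 UMIs in KO replicates 1 and 2, against 15540, 17919 and 16214.5 in WT replicates 1 to 3. In list B the median was 14337.5 in KO replicate 3 and 12621.5 in WT replicate 4. With cells thinned to 4000 UMIs before the rule, the labels overlapped (exact permutation p = 0.0857). The mean share was then 1.22% ± 2.11 (SD, n = 3) for KO and 10.0% ± 4.64 (SD, n = 4) for WT. Over all cells with at least 2 Dntt UMIs and the T and NK limit, the share with a Rag1 UMI was 0.902% ± 0.181 (SD, n = 3) for KO and 3.30% ± 0.591 (SD, n = 4) for WT (exact permutation p = 0.0286, adjusted p = 0.0643), and after thinning to 4000 UMIs the exact permutation p = 0.0571.

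Ebf1 was looked at singly, out of 8 B lineage genes whose joint share was the planned comparison. An Ebf1 UMI, which the rule did not use, was present in 26.3%, 7.69% and 14.8% of progenitors in the KO libraries and in 29.6%, 33.3%, 37.8% and 40.1% in the WT libraries. The labels did not overlap (mean 16.3% ± 9.40 (SD, n = 3) for KO and 35.2% ± 4.70 (SD, n = 4) for WT, exact permutation p = 0.0286, adjusted p = 0.0643). With each progenitor thinned to 4000 UMIs the mean was 11.2% ± 8.63 (SD, n = 3) for KO and 22.8% ± 8.01 (SD, n = 4) for WT, and the labels overlapped (exact permutation p = 0.171). The share of progenitors with a UMI of any of 8 B lineage genes was 46.1% ± 9.99 (SD, n = 3) for KO and 56.8% ± 5.05 (SD, n = 4) for WT (exact permutation p = 0.0857). Of the 113 progenitors with a Rag1 UMI 77.9% had a B lineage UMI, against 52.8% of the 669 without, counts that pool the libraries, are not matched for depth and carry no test.

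WT replicate 4 stood apart in B lineage RNA. In it 39 of 324 progenitors (12.04%) had at least 5 UMIs of Igll1, Vpreb1, Vpreb3, Cd79a and Pax5 together, and 0 did in the other 6 libraries. These genes encode the surrogate light chain, a receptor chain and an identity factor of cells further along the B lineage. All 39 cells had an Ebf1 UMI, 30 had a Rag1 UMI, 16 a Kit UMI and 19 a Ly6a UMI. Igll1 was at 308 CPM in the progenitors of WT replicate 4 and at most 2.56 CPM in the others. Without the 39 cells the label difference in progenitor share was -2.48 points (exact permutation p = 0.0571).

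**Figure D4:**
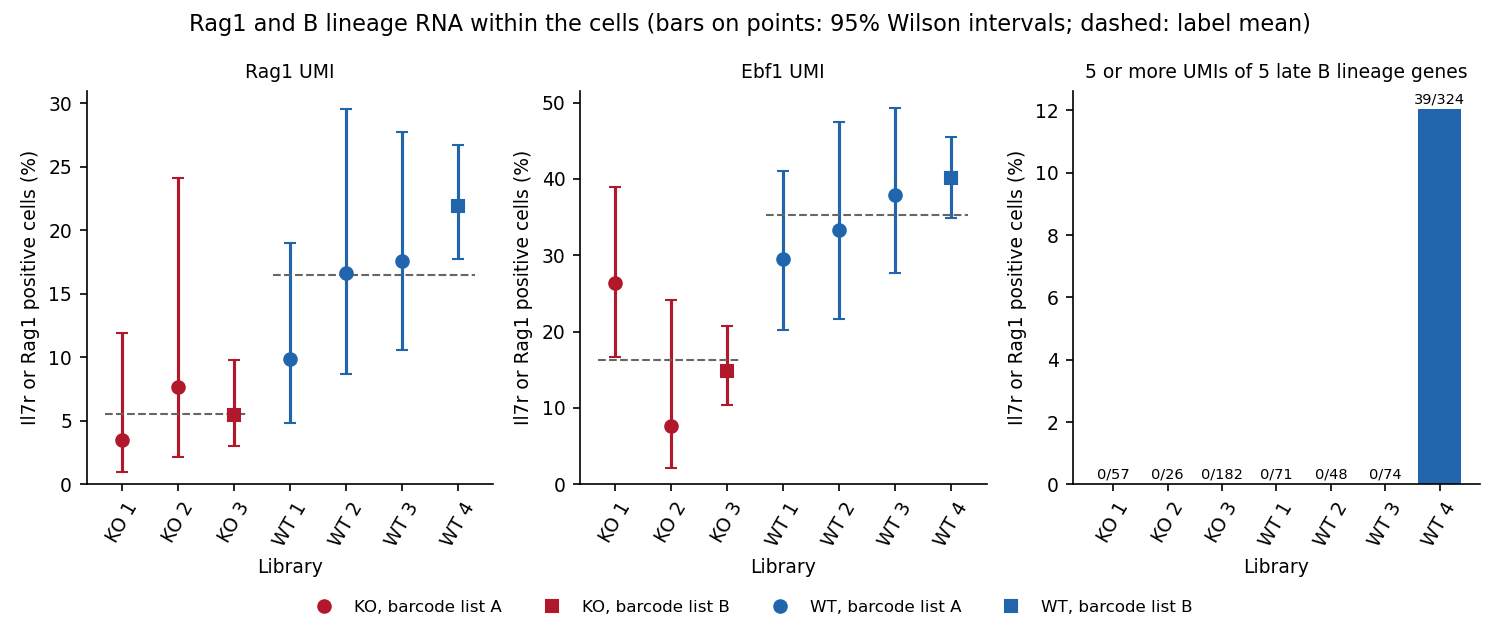
Shares of progenitors by library in percent, with a Rag1 UMI, with an Ebf1 UMI and with at least 5 UMIs of 5 later B lineage genes, drawn as bars. Lines on the Rag1 and Ebf1 points are 95% Wilson intervals for counting error, and dashed lines are label means. The KO libraries lie below the WT libraries for Rag1 and Ebf1, and the later B lineage share is above 0 in WT replicate 4 only.

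Summed over the progenitors of each library, few genes differed between the labels. The test was edgeR's quasi-likelihood test with the barcode list as a covariate. Of 9451 genes tested, 41 (0.434%) passed an adjusted p of 0.05, with 30 (0.317%) higher and 11 (0.116%) lower in KO, and 260 of 9445 genes (2.75%) had label groups that did not overlap in CPM. With no covariate 0 passed with edgeR (138 at an unadjusted p under 0.05), while 29 passed in list A alone and 44 with DESeq2. Dntt, Il7r and Rag1 chose the cells, so their levels here are a description. The log2 differences were -0.16 for Dntt and 0.23 for Il7r. Rag1, which is counted among the 41, was at 2.56, 5.46 and 4.26 CPM in the KO libraries and 7.57, 9.30, 11.8 and 26.6 CPM in the WT libraries (log2 difference -2.21), and it depends on how many cells Il7r admitted.

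The largest listed group among the calls was myeloid. Of 15 myeloid genes tested 6 rose in KO progenitors and 0 fell, with a median of 1.20 against -0.00 over all genes. Irf8 was at 462, 292 and 356 CPM in the KO libraries and 188, 183, 151 and 152 CPM in the WT libraries (log2 difference 1.20, SE 0.15, edgeR adjusted p = 1.0e-04). Csf1r, the receptor of macrophages and their progenitors, was at 38.4, 27.3 and 24.3 CPM in the KO libraries and 10.1, 6.20, 10.2 and 5.76 CPM in the WT libraries (log2 difference 2.00, edgeR adjusted p = 7.7e-04). For both genes each KO library lay above each WT library. Prtn3 was at 209.9, 134 and 306 CPM in the KO libraries and 47.9, 33.0, 34.6 and 112 CPM in the WT libraries (log2 difference 1.92, edgeR adjusted p = 8.3e-06), and Ctsg at 212, 109 and 248 CPM in the KO libraries and 69.0, 45.4, 36.2 and 80.4 CPM in the WT libraries (log2 difference 1.72, edgeR adjusted p = 4.7e-04). Ly86 averaged 90.6 CPM ± 38.7 in KO and 34.3 CPM ± 5.82 in WT (log2 difference 1.49, edgeR adjusted p = 7.5e-04, n = 3 and 4 in each mean here), and F13a1, a coagulation factor gene of monocytes, 32.7 CPM ± 16.1 in KO and 6.56 CPM ± 5.64 in WT (log2 difference 2.79, edgeR adjusted p = 0.00137).

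The summed level of the myeloid list was higher in the KO libraries outside the progenitors too. The 18 myeloid genes summed to 1761 to 2221 CPM in the KO libraries and 1116 to 1440.2 CPM in the WT libraries in the progenitors, to 2842 to 3224 CPM in the KO libraries and 1365 to 1737 CPM in the WT libraries in the other Dntt cells and to 3526 to 13386 CPM in the KO libraries and 1715 to 3449 CPM in the WT libraries in all kept cells, with no overlap in any. In the other Dntt cells, where 62 of 11114 genes passed (0.558%, with 0.333% higher and 0.225% lower), Irf8 differed by 1.08, Csf1r by 1.72 and Prtn3 by 1.87 (edgeR adjusted p = 0.00214, 0.00143 and 0.00115). In all kept cells 162 of 14608 genes passed (1.11%, with 0.472% higher and 0.637% lower), among them Irf8 (1.14) and Csf1r (1.85) but not Prtn3 (edgeR adjusted p = 0.112). Free RNA in droplets adds reads to cells that do not express a gene. In the megakaryocytic cells of KO replicate 3 and WT replicate 4, Prtn3 was at 68.7 and 143 CPM, Ctsg at 12.3 and 99.1 CPM, Irf8 at 5.61 and 20.5 CPM and Csf1r at 0.351 and 0.708 CPM. In WT replicate 4 the progenitors' Prtn3 and Ctsg lay below that level, and in KO replicate 3, at 306 and 248 CPM, they lay above it. In both libraries the progenitors' Irf8 and Csf1r lay above it. The list A libraries held too few megakaryocytic cells to give such a level. The part of free RNA in the label differences was not tested. After thinning to 4000 UMIs 3 of 2453 genes passed, 1 of them in the myeloid list.

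Muc13 was at 69.1, 27.3 and 65.6 CPM in the KO libraries and 12.6, 19.6, 14.2 and 25.8 CPM in the WT libraries (log2 difference 1.61, SE 0.25, edgeR adjusted p = 0.00124), so KO replicate 2 lay just above the highest WT library. In the other Dntt cells Muc13 averaged 120.0 CPM ± 35.4 in KO and 56.2 CPM ± 11.6 in WT (log2 difference 1.04, edgeR adjusted p = 0.00132), and in all kept cells it did not pass (log2 difference 0.41, edgeR adjusted p = 0.294). In the megakaryocytic cells Muc13 was at 251 and 205 CPM, above the progenitors. The largest rise among the genes named by size was Gm15987, a predicted transcript, at 141, 71.0 and 36.2 CPM in the KO libraries and 9.25, 15.5, 14.2 and 8.23 CPM in the WT libraries (log2 difference 2.80, edgeR adjusted p = 7.4e-06). Ms4a6c (2.53), Ccl9, a chemokine of myeloid cells (1.72), and Rab44 (1.67) also rose. Under alternative settings of the fit Ms4a6c passed in 11 of 15, Ccl9 in 14 of 15 and Rab44 in 8 of 15. Slpi, a protease inhibitor, rose by 1.74 to 50.3 CPM in KO against 16.1 CPM in WT, and was at 59.6 and 34.7 CPM in the megakaryocytic cells.

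The falls named by size were Ankrd6, Prkg1, Slc22a3, Ccser1 and Cobll1. Ankrd6 was at 14.1, 2.73 and 7.67 CPM in the KO libraries and 35.3, 31.0, 51.2 and 19.8 CPM in the WT libraries (log2 difference -1.64, SE 0.33, edgeR adjusted p = 0.0143). Ankrd6 lies on the same chromosome as the targeted gene, at chr4:32804035-32950841 against chr4:40804602-40854005 for B4galt1. Of the 5 falls named by size only Ankrd6 had its position looked up, and a link with the targeted gene was not tested. Cobll1 was at 64.0, 84.6 and 52.8 CPM in the KO libraries and 120.3, 165, 188 and 95.5 CPM in the WT libraries (log2 difference -0.996, edgeR adjusted p = 0.00870). Ccser1 averaged 56.0 CPM ± 4.47 in KO and 137 CPM ± 44.4 in WT (log2 difference -1.10, edgeR adjusted p = 0.0123), Slc22a3, an organic cation transporter, 21.6 CPM ± 14.03 in KO and 70.1 CPM ± 10.7 in WT (log2 difference -1.38, edgeR adjusted p = 0.0142), and Prkg1, a cGMP-dependent kinase, 15.3 CPM ± 6.61 in KO and 35.9 CPM ± 15.5 in WT (log2 difference -1.45, edgeR adjusted p = 0.0123). A lack of overlap between the labels was a condition for naming these 5 by size, so it is not a result. Car2, named as a list gene, passed with overlapping labels (log2 difference -0.94, edgeR adjusted p = 0.0146). Several of these calls depended on the settings of the fit. Ankrd6 passed in 9 of 15 alternative settings, Prkg1 in 7 of 15 and Slc22a3 in 11 of 15. Ccser1 passed in 11 of 16, Cobll1 in 9 of 16 and Car2 in 7 of 16. In the other Dntt cells Ankrd6 (log2 difference -1.66, edgeR adjusted p = 0.00195) and Ccser1 (log2 difference -1.15, edgeR adjusted p = 0.0121) passed, and Prkg1, Slc22a3 and Cobll1 did not (adjusted p = 0.145, 0.233 and 0.0568).

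**Figure D5:**
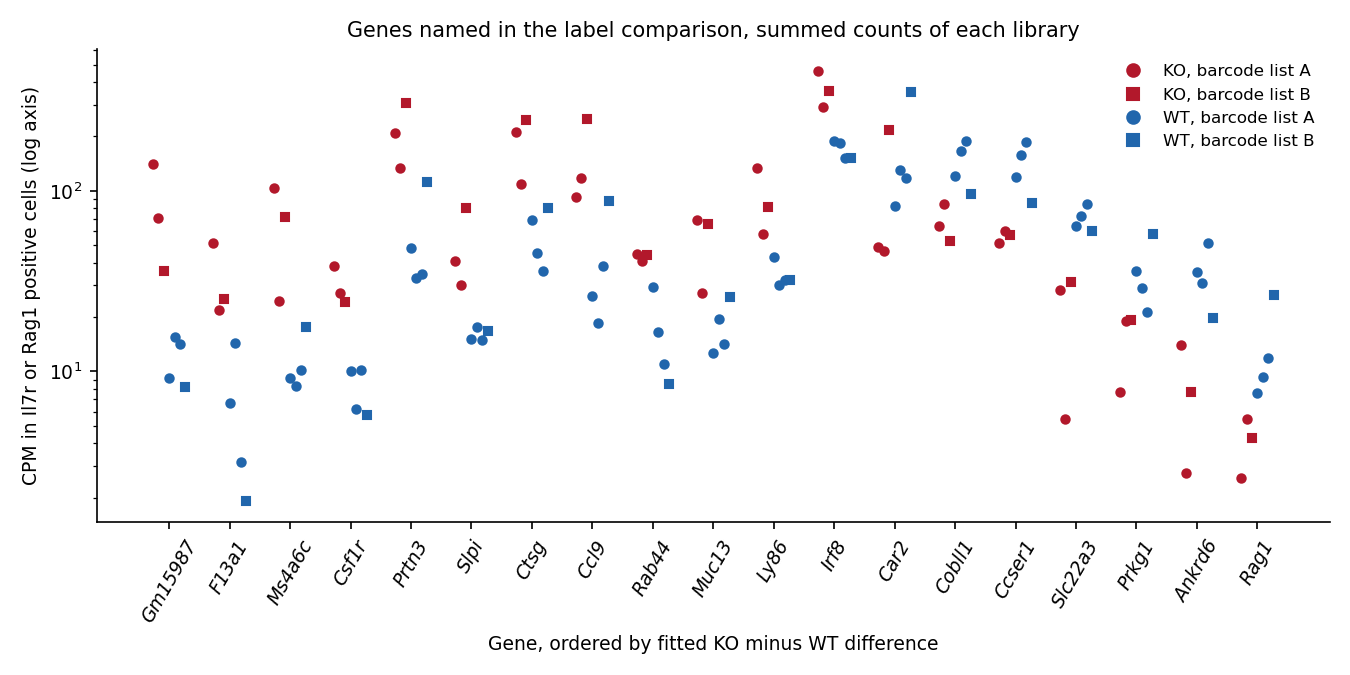
CPM of the named genes in the progenitors of each library on a log axis. KO libraries are red and WT libraries blue, circles are list A and squares list B. Muc13 lies at 27.3 to 69.1 CPM in KO and 12.6 to 25.8 CPM in WT, and Ankrd6 at 2.73 to 14.1 CPM in KO and 19.8 to 51.2 CPM in WT.

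No tested gene of the lymphoid lists passed by label, where 0.434% of all genes did, so lists of this size would hold few calls or none at that background. With edgeR 0 of 14 early lymphoid genes (median -0.03), 0 of 5 B lineage genes (-0.13), 0 of 18 lymphoid transcription factors (0.05), 0 of 20 Il7 receptor signalling genes (0.02) and 0 of 10 recombination and end joining genes (-0.05) passed. At an unadjusted p under 0.05 the counts were 4, 0, 3, 4 and 1 in that order, against 558 of all 9451 genes. Without WT replicate 4 the early lymphoid and B lineage medians were 0.10 and 0.46. Rag2 was at 12.8, 5.46 and 22.6 CPM in KO and 22.7, 43.4, 26.0 and 43.6 CPM in WT (log2 difference -1.17, edgeR adjusted p = 0.0860). Ebf1 was at 199.6, 8.19 and 48.1 CPM in KO and 68.1, 63.0, 135 and 668 CPM in WT (log2 difference -0.90, edgeR adjusted p = 1.00), with overlapping labels. Of 10 stem cell genes (median -0.40) and 20 G2/M genes (median -0.25) 0 passed with edgeR (3 and 4 at an unadjusted p under 0.05). The label difference itself differed between the barcode lists for 4 of 9451 genes (0.0423%, all 4 lower in list B), Ccr2, Hspa1a, Elane and Chchd10. List B holds 1 library per label, so the spread behind that test comes from list A alone, and in each of the 4 genes WT replicate 4 was the highest WT library. The difference between progenitors and other Dntt cells differed by label for 1 of 11510 genes (0.00869%), Hbb-bs. A p that misses the threshold does not show equal levels, and KO replicate 2 held 26 progenitors.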

How the data were processed

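Gene counts (UMIs) per barcode from 7 single-cell libraries of mouse LSK cells were used as the authors deposited them, with no normalization. Cell Ranger 7.0.0, per the file headers and the submitters' processing notes, made the matrices, and Seurat 4.4.0 and mm10 appear in those notes. Libraries held 14970791 to 89747946 UMIs. Cells were kept and members chosen as the report states. No doublet caller was run; leaving out the 5% of cells with the most UMIs was an alternative. Shares were compared by label by exact permutation of the labels (35 splits, two-sided), with Wilson 95% intervals for counting error. Counts summed per library were tested in R 4.3.3 with edgeR 4.0.16 (TMM, filterByExpr, robust quasi-likelihood) and Benjamini-Hochberg adjustment over all genes tested, and with DESeq2 1.42.0 (Python 3.11.15 and scipy 1.17.1 elsewhere). The fits were tested on simulated data. Members, gene lists and tests were chosen with earlier results of these data known. Genes were named by rule. For the labels these were Dntt, Il7r, Rag1, B4galt1, Muc13, the 8 largest rises and falls that passed with a mean of at least 20 CPM and no overlap, and list genes that passed. For members against other Dntt cells these were the 12 largest rises and falls of 1 direction in all libraries, up to 4 passing genes per list with the smallest p, and the lymphoid, B lineage and transcription factor lists. Other kept cells entered as background only, and a few genes that the rule names are not reported here.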

Additional observations from a re-analysis of the deposited data

Results flagged for a closer look

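In the 4 WT libraries, WT replicate 4 lay far above the others in the progenitors for 7 of 42 quantities examined for a single library that stands apart. All 7 are B lineage or lymphoid progenitor genes. They come from a set of such genes added by choice to the shares and named genes examined, so their shared kind is not a result. Igll1, Vpreb1, Vpreb3, Cd79a and Pax5 also defined the 39 later B lineage cells found in that library only. The 7 are therefore not independent of each other, and their number is not set against chance. Igll1 and Vpreb1, of the surrogate light chain, were at 308 and 219 CPM in that library, against at most 0 and 2.36 CPM in the other WT libraries. Vpreb3 was at 167 CPM, Cd79a at 203 CPM and Pax5 at 44.7 CPM. Ebf1 and Ly6d were at 668 and 166 CPM, against at most 135 and 25.2 CPM.

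The label difference itself differed between the barcode lists for 4 of 9451 genes (0.0423%) by edgeR's interaction test, as list B minus list A on the log2 scale. Ccr2, a chemokine receptor of monocytes (-4.84, adjusted p = 4.1e-06), was at 152, 243 and 232 CPM in the KO libraries and 3.36, 2.07, 3.94 and 111 CPM in the WT libraries. Elane, a neutrophil granule protease (-5.90, adjusted p = 7.3e-04), was at 30.7, 8.19 and 49.8 CPM in the KO libraries and 0.841, 1.03, 0 and 85.6 CPM in the WT libraries. In both, WT replicate 4 was far above the other WT libraries. Hspa1a, a heat shock gene (-10.26, adjusted p = 1.3e-04), was at 16.6, 8.19 and 0 CPM in the KO libraries and 5.89, 5.16, 12.6 and 60.1 CPM in the WT libraries, and Chchd10 (-3.05, adjusted p = 0.0187) at 44.8, 21.8 and 42.6 CPM in the KO libraries and 37.9, 24.8, 15.7 and 248 CPM in the WT libraries. In each of the 4, WT replicate 4 was the highest WT library. List B holds 1 library per label, so the test takes its spread from list A alone, and a library and its list cannot be told apart.

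The difference between progenitors and other Dntt cells differed by label for 1 of 11510 genes (0.00869%), Hbb-bs, a haemoglobin gene (KO minus WT 4.28, adjusted p = 0.0341 by edgeR). In the progenitors Hbb-bs was at 0, 0 and 5.96 CPM in the KO libraries and 0, 0, 0 and 5.49 CPM in the WT libraries, and in the other Dntt cells at 0, 0 and 0.951 CPM in the KO libraries and 0, 0.350, 0.267 and 17.4 CPM in the WT libraries.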

How the results depend on the processing

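Leaving out 1 library at a time, where 6 libraries cannot reach an exact permutation p below 0.0667, gave KO minus WT differences of -2.22 to -2.92 points for the progenitor share, -7.81 to -12.7 points for the Dntt share and -14.6 to -24.0 points for the Ebf1 share. In list A the last 2 were -12.5 and -16.6 points (exact permutation p = 0.1, the smallest possible), and the progenitor share -3.23. In list B the differences were -1.001 points for the progenitors, -4.56 for Dntt and -16.4 for Rag1. Leaving out cells with any T or NK gene gave -0.847 points (exact permutation p = 0.171) for the progenitors, -3.71 points (exact permutation p = 0.114) for Dntt and -18.8 points (exact permutation p = 0.0571) for Ebf1. The progenitor share also missed the threshold at a mitochondrial limit of 5%, at -3.17 points (exact permutation p = 0.0571), and without the later B lineage cells, at -2.48 points (exact permutation p = 0.0571). The Ebf1 share missed it after thinning, at -8.97 points (exact permutation p = 0.343) with cells thinned to 4000 UMIs before the rule, -10.8 points (exact permutation p = 0.514) at 2000 and -11.7 points (exact permutation p = 0.171) with members thinned. Counting Ebf1 alone in the B lineage share repeats the Ebf1 comparison, at -18.9 points (exact permutation p = 0.0286). The Rag1 share of progenitors passed with at least 2 UMIs of Il7r and Rag1, at -16.3 points (exact permutation p = 0.0286). Thinned before the rule it missed, at -8.80 points (exact permutation p = 0.0857) with 4000 UMIs and -2.57 points (exact permutation p = 0.629) with 2000. The Rag1 share of Dntt cells was -0.120 points (exact permutation p = 0.943) at 2000. The direction turned, without passing, for the share of Dntt cells that are progenitors (1.05 points thinned), for Il7r in Dntt cells (0.132 with the stricter T and NK limit, 1.84 and 0.0732 thinned) and for B lineage UMIs in other Dntt cells (-0.411 without KO replicate 3 and up to 8.31 without KO replicate 2, -1.38 thinned). The causes were not tested.

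Genes that passed by label, 41 in all, numbered 0 with no covariate, 154 with no gene filter (65 higher, 89 lower), 3 after thinning, where fewer genes could be tested, and 26 to 50 with 1 library left out (26 without WT replicate 3). For the progenitors against other Dntt cells, 1672 in all, the numbers were 755 in list A, 312 after thinning, 45 without the library term and 1146 to 1673 with 1 library left out. B4galt1 turned to 0.17 in list A, 0.17 without KO replicate 3 and 0.17 without WT replicate 4 (-0.37 without KO replicate 1), and did not pass.

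Replicate numbers did not pair the libraries: deviations of same-numbered libraries correlated at 0.0213, 0.0111 and 0.0986. With the replicate number as a block, the shares were compared in 3 same-numbered pairs, without WT replicate 4. The differences were -2.91 points (exact permutation p = 0.250) for the progenitors, -9.61 points (exact permutation p = 0.250) for Dntt and -17.3 points (exact permutation p = 0.250) for Ebf1. That p is the smallest these pairs allow. In the gene fits with this block 32 genes passed by label without the barcode list and 79 with it, Dntt turned to 0.10 and B4galt1 to 0.17. Fits on members with no myeloid granule UMI were not run, since some libraries held fewer than 10 such cells. Depth limits the rarest RNAs, Rag1 among them, and 26 progenitors limit KO replicate 2.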

Other observations

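RNA of heavy chain variable genes was low but present in the progenitors. Of 185 Ighv genes, 3 reached 20 CPM in the progenitors of a library, and they were looked up after their values had been seen. They are Ighv1-77 (chr12:115861867-115862355), Ighv1-78 (chr12:115868773-115869227) and Ighv1-85 (chr12:116000028-116000461), all on the minus strand (GRCm38). Ighv genes are close copies of each other, so the gene a read was assigned to is uncertain.

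The 3 were picked for their level in the progenitors, so their differences from the other Dntt cells, 1.44 for Ighv1-77, 1.73 for Ighv1-78 and 1.45 for Ighv1-85 on the log2 scale, carry no test. Ighv1-77 was at 12.8, 5.46 and 126 CPM in the KO libraries and 49.6, 69.2, 67.7 and 351 CPM in the WT libraries in the progenitors. The list B libraries were the highest under each label, and KO replicate 3 lay above 3 of the 4 WT libraries. With the barcode list as a covariate Ighv1-77 was lower in KO (log2 difference -1.81, edgeR adjusted p = 1.0e-04), and it passed under 13 of 15 alternatives, with adjusted p up to 1.00. Ighv1-85 reached 20 CPM in WT replicate 4 alone (60.1 CPM, against at most 16.2 CPM in KO). It was thus picked through a WT library, so its label difference (log2 -2.13) is a description and carries no test. The p-values by label of Ighv1-77 and Ighv1-78 do not account for the picking of these genes after their values had been seen. Ighv1-78 did not pass (log2 difference -1.67, edgeR adjusted p = 0.0888), and passed under 1 of 15 alternatives. In the progenitors Ighv1-77 was the highest of the 3 genes. In the other Dntt cells Ighv1-77 was at 2.80, 5.02 and 35.2 CPM in the KO libraries and 39.8, 27.6, 33.3 and 115 CPM in the WT libraries (log2 difference -2.28, edgeR adjusted p = 0.00125).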
